A study of Mus musculus with 9 samples.

Results

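Hemoglobin is the oxygen carrier of red blood cells, and 6 genes of the hemoglobin and red cell program were followed in the ovaries of juvenile Kunming mice. They were the alpha globin genes Hba-a1 and Hba-a2, the beta globin genes Hbb-bs and Hbb-bt, the erythroid heme synthesis gene Alas2, and Slc4a1, which encodes the band 3 anion exchanger of the red cell membrane. The genes were picked by symbol, 6 of the 52025 genes listed, after their FPKM at PD14, PD15 and PD16 had been seen. Their differences between days are therefore a description, and no test is given for them. All 6 symbols were found, and 5 of the 6 genes were among the 15495 tested, whose FPKM averaged over 1 in a minimum of 1 of the 3 days, whereas Slc4a1 was not. Hba-a2 passed this filter through PD14 alone and Alas2 through PD14 and PD16.

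The study addressed which transcripts of the ovary alter while the follicular antrum first forms, and it sampled untreated mice at PD14, PD15 and PD16. RNA-Seq was performed on 9 libraries, 3 for each day, with no genetic change or treatment in any group. The values are FPKM, that is fragments counted for a gene relative to the length of its exons and to the depth of the library. The labels name the tissue as ovary but the source as granulosa cells, and do not say whether ovaries were pooled or perfused. The study describes the ovaries sequenced for a day as biologically independent, without saying whether they came from separate animals, so that p-values measure the spread between these ovaries. Markers of oocytes, of theca and interstitial cells, of endothelium and of stroma were present in every library beside those of granulosa cells, with sums of at least 845, 1126, 83.5 and 321 FPKM over their 7, 5, 9 and 5 genes. The libraries held 20.4 to 28.7 M mapped fragments.

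Adult hemoglobin is a tetramer of alpha and beta globin chains, each of which holds a heme group. Globin chains are made in such quantity in erythroblasts that their mRNA persists in reticulocytes, which have lost the nucleus and still circulate for a while in blood. Alas2 makes the red cell form of 5-aminolevulinate synthase, the first enzyme of heme synthesis, and Alas1 the form used by other cells. RNA of a vascularised organ that was not freed of blood carries globin mRNA from the cells in its vessels, and the globin level then depends on how much blood, and how many reticulocytes, the sample holds. In these bulk samples, fewer red cells and less RNA per red cell cannot be told apart.

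The sequence before the start of these genes is shown as a description. Whether its short motifs bear on the levels of the genes was not tested. RefSeq's promoter table (GRCm38.p6) held 5 of the 6 genes, and Slc4a1 was not among them. The 250 bases before the RefSeq start are printed 5′ to 3′ on the strand of the gene for Hba-a1 (chr11:32283422-32283671, plus strand), Hbb-bs (chr7:103827929-103828178, minus strand), Hbb-bt (chr7:103813924-103814173, minus strand) and Alas2 (chrX:150547167-150547416, plus strand). Capitals mark each match, on either strand, of the CCAAT box, of CACCC (a site for factors such as Klf1), of GATAA (the core of sites for GATA factors) and of the TATAA box, and matches on opposite strands overlap at 1 TATAA in Alas2.
Hba-a1: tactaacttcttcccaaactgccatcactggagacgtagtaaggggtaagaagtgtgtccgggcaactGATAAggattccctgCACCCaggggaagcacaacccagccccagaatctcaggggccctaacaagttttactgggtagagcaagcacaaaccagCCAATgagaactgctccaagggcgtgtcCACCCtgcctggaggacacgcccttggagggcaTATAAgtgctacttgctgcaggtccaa
Hbb-bs: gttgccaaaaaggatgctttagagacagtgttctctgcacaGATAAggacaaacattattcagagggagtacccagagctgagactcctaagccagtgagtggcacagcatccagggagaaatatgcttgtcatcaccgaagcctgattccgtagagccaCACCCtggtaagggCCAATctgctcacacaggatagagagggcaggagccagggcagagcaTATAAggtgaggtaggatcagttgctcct
Hbb-bt: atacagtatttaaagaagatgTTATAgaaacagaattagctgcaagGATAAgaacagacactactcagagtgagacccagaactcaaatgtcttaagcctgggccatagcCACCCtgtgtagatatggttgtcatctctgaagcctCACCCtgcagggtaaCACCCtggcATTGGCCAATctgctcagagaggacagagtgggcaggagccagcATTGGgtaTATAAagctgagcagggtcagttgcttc
Alas2: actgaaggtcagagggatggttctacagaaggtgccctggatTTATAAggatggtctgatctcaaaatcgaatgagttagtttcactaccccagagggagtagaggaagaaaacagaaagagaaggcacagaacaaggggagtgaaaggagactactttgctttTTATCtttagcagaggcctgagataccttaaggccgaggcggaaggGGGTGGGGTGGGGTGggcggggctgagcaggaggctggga
The window of Hba-a2 (chr11:32296242-32296491, plus strand) shared a run of 247 of its 250 bases with that of Hba-a1 and is not repeated. The windows of Hbb-bs and Hbb-bt shared a run of 14 bases at most, and those of Hba-a1 and Hbb-bs a run of 9.

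All 4 motifs stood in the windows of the 4 globin genes, whereas the Alas2 window lacked CCAAT. Among the 32851 promoters of the same length in the table, 33.8% held CCAAT, 52% held CACCC, 22.6% held GATAA, 22.8% held TATAA and 0.968% held all 4. The plus strand TATAA began 27 bases before the start in Hba-a1, 30 in Hba-a2, 29 in Hbb-bs and 28 in Hbb-bt. In Alas2 it began 207 bases before the start. CCAAT on the plus strand began 88, 91, 76 and 75 bases before the start of the 4 globin genes in the same order. The GENCODE M21 gene models begin before these RefSeq starts, by 161 bases for Hba-a1, 3 for Hba-a2, 168 for Hbb-bs, 73 for Hbb-bt and 42 for Alas2, so that distances depend on the annotation. A match of letters is not a measured binding site.

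The alpha globin genes lie near each other on chromosome 11, and are near-identical copies. In GENCODE M21 (GRCm38), Hba-a1 (ENSMUSG00000069919) spans chr11:32283511-32284465 and Hba-a2 (ENSMUSG00000069917) chr11:32296489-32297298, both on the plus strand. The GENCODE transcript compared for Hba-a2 (554 bases) shared an unbroken run of 415 bases with that of Hba-a1 (699 bases), and 86.9% of its 50-base windows were found there. How the fragments were split between the copies was not given in the sources used here, so the split is uncertain and the sum of the pair is also given.

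Hba-a1 was the most abundant of the 6 genes, 800th of all genes by its mean over the 9 libraries. Its level was 74.9, 85.9 and 101.2 FPKM in the PD14 libraries, 29.8, 31.2 and 40.1 FPKM in the PD15 libraries, and 62.2, 82.8 and 41.4 FPKM in the PD16 libraries. Every PD15 library was below every PD14 library. PD16 lay between and was the most spread, with PD16 replicate 2 above the lowest PD14 library and PD16 replicate 3 just above the highest PD15 library. The mean was 87.4 ± 13.2 FPKM at PD14, 33.7 ± 5.62 at PD15 and 62.1 ± 20.7 at PD16 (SD, n = 3). The ratio of day means on the log2 scale was -1.37 for PD15 against PD14, -0.49 for PD16 against PD14 and 0.88 for PD16 against PD15, that is 2.59-fold lower at PD15 and then 1.84-fold higher at PD16. The separation of PD16 from PD15 rested on 40.1 against 41.4 FPKM, whose 95% exact Poisson intervals (37.6 to 42.8 and 38.7 to 44.3) overlapped.

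**Figure D1:**
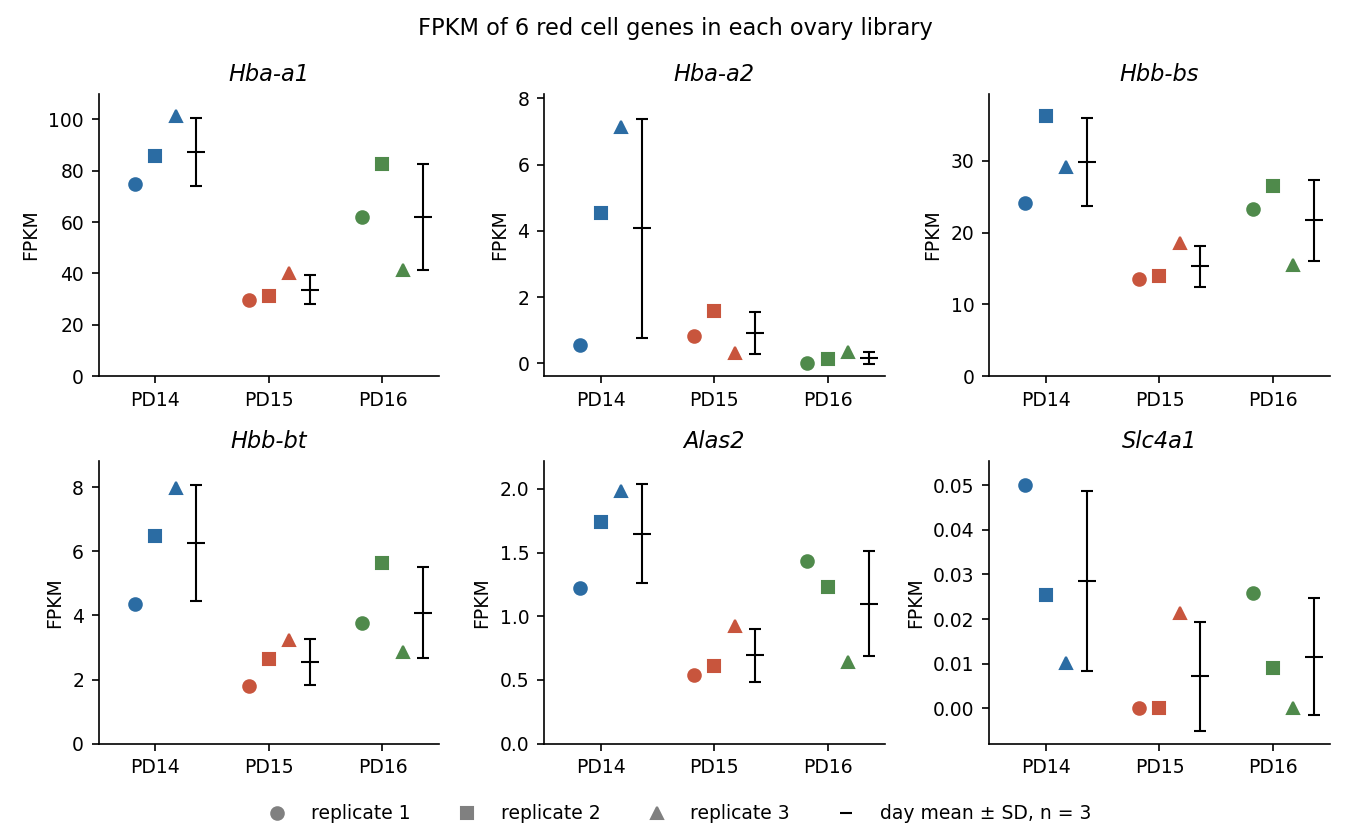
FPKM (vertical axis, from 0) of each of the 6 genes in the 9 libraries by day, with a symbol for each replicate number and, in black, the day mean ± SD (n = 3). The PD15 libraries lie below the PD14 libraries for Hba-a1, Hbb-bs, Hbb-bt and Alas2, Hba-a2 is at up to 7.14 FPKM at PD14 and at most 0.354 at PD16, and Slc4a1 stays at or under 0.0501 FPKM.

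Hba-a2 was low and behaved unlike the other globin genes. It was at 0.551, 4.53 and 7.14 FPKM at PD14, at 0.824, 1.57 and 0.313 FPKM at PD15, and at 0, 0.132 and 0.354 FPKM at PD16. The PD16 libraries were all below the PD14 libraries, whereas PD15 overlapped with both other days. In fragments, the days held 179, 45 and 8 in all. A count of 0 in PD16 replicate 1 allows up to 0.189 FPKM, the level of 3 fragments. The mean was 4.07 ± 3.32 FPKM at PD14, 0.904 ± 0.635 at PD15 and 0.162 ± 0.179 at PD16 (SD, n = 3), and the log2 ratio of means was -2.17 for PD15 against PD14, -4.65 for PD16 against PD14 and -2.48 for PD16 against PD15. With a library left out, these ratios ran from -2.84 (without PD15 replicate 2) to -1.49 (without PD14 replicate 3), from -5.95 (without PD16 replicate 3) to -3.97 (without PD14 replicate 3) and from -3.78 (without PD16 replicate 3) to -1.81 (without PD15 replicate 2). The SD of PD14 was close to its mean, since PD14 replicate 1 was as low as the PD15 libraries.

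The share of Hba-a2 among the fragments of the alpha pair differed between some libraries of the same day beyond their 95% counting intervals. It was 0.600% (95% Wilson interval 0.316 to 1.14), 4.15% (3.31 to 5.19) and 5.48% (4.51 to 6.64) at PD14. At PD15 it was 2.23% (1.33 to 3.70), 3.98% (2.71 to 5.81) and 0.637% (0.292 to 1.38). At PD16 it was 0% (0 of 1203 fragments, upper bound 0.318), 0.131% (0.0359 to 0.476) and 0.696% (0.319 to 1.51). The interval of PD14 replicate 1 lay below those of both other PD14 libraries, and that of PD15 replicate 3 lay below that of PD15 replicate 2. Intervals here cover counting error only, and they may be too narrow even for that, because fragments copied by PCR are not independent molecules.

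**Figure D2:**
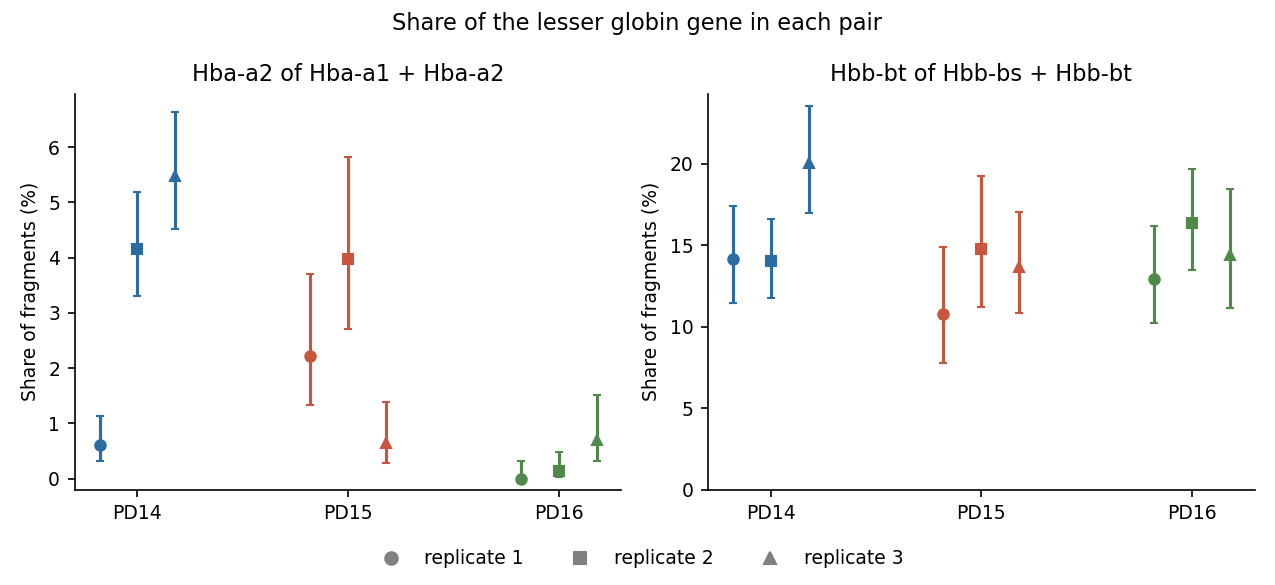
Percent of the fragments of each globin pair (vertical axis) counted for Hba-a2 (left) and Hbb-bt (right) in each library, by day, with 95% Wilson intervals and a symbol for each replicate number. Hba-a2 ranges from 0 to 5.48% and Hbb-bt from 10.8% to 20.04%.

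The beta globin genes of the mouse lie in a cluster on chromosome 7. Hbb-bs (ENSMUSG00000052305) spans chr7:103826534-103828096 and Hbb-bt (ENSMUSG00000073940) chr7:103812524-103813996, both on the minus strand. The transcripts compared for Hbb-bs (628 bases) and Hbb-bt (703 bases) shared an unbroken run of 430 bases, and 65.8% of the 50-base windows of the former were found in the latter, so the split between these genes is uncertain as well. By contrast, those of Hba-a1 and Hbb-bs shared no window and a run of 14 bases at most.

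Hbb-bs was the more abundant beta globin gene, at 24.2, 36.3 and 29.1 FPKM in the PD14 libraries, 13.5, 13.9 and 18.6 FPKM in the PD15 libraries, and 23.2, 26.4 and 15.5 FPKM in the PD16 libraries. PD15 was below PD14 without overlap, and PD16 overlapped with both. Its mean was 29.9 ± 6.11 FPKM at PD14, 15.3 ± 2.85 at PD15 and 21.7 ± 5.62 at PD16 (SD, n = 3), so that PD15 was 1.95-fold lower than PD14 and PD16 was 1.42-fold higher than PD15.

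Hbb-bt followed the same order at a lower level, with 4.35, 6.48 and 7.96 FPKM at PD14, 1.79, 2.63 and 3.22 FPKM at PD15, and 3.76, 5.64 and 2.85 FPKM at PD16. PD15 again lay below PD14 without overlap, and PD16 replicate 3 fell among the PD15 libraries. Its mean was 6.26 ± 1.81, 2.55 ± 0.719 and 4.08 ± 1.42 FPKM on the 3 days (SD, n = 3), 2.46-fold lower at PD15 than at PD14 and 1.60-fold higher at PD16 than at PD15. Unlike the share of Hba-a2, the share of Hbb-bt in the fragments of the beta pair was similar in the libraries of PD15 (10.8% to 14.8%) and of PD16 (12.9% to 16.3%). At PD14 it was 14.2% (95% Wilson interval 11.4 to 17.4) and 14.0% (11.8 to 16.6) in replicates 1 and 2 and 20.04% (17.0 to 23.5) in replicate 3. Here too the share differed within a day, since the interval of replicate 3 lay above that of replicate 2, while it overlapped with that of replicate 1.

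The alpha and beta sums were then compared, since the tetramer takes the same number of both chains. The sum of the 4 globin genes, here called adult hemoglobin, was 104.0, 133.3 and 145.4 FPKM at PD14, 45.9, 49.3 and 62.3 FPKM at PD15, and 89.2, 115.0 and 60.2 FPKM at PD16. Of all FPKM in a library it made up 0.0146% to 0.0438%. From the lowest to the highest, the libraries were PD15 replicates 1 and 2, PD16 replicate 3, PD15 replicate 3, PD16 replicate 1, PD14 replicate 1, PD16 replicate 2, and PD14 replicates 2 and 3. The day means were 127.6 ± 21.3, 52.5 ± 8.66 and 88.1 ± 27.4 FPKM (SD, n = 3), that is log2 ratios of -1.28 (2.43-fold lower) for PD15 against PD14, -0.53 (1.45-fold lower) for PD16 against PD14 and 0.75 (1.68-fold higher) for PD16 against PD15. The difference between PD15 and PD14 exceeded the spread of the libraries on both days, and the libraries of PD16 overlapped with those of both other days.

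**Figure D3:**
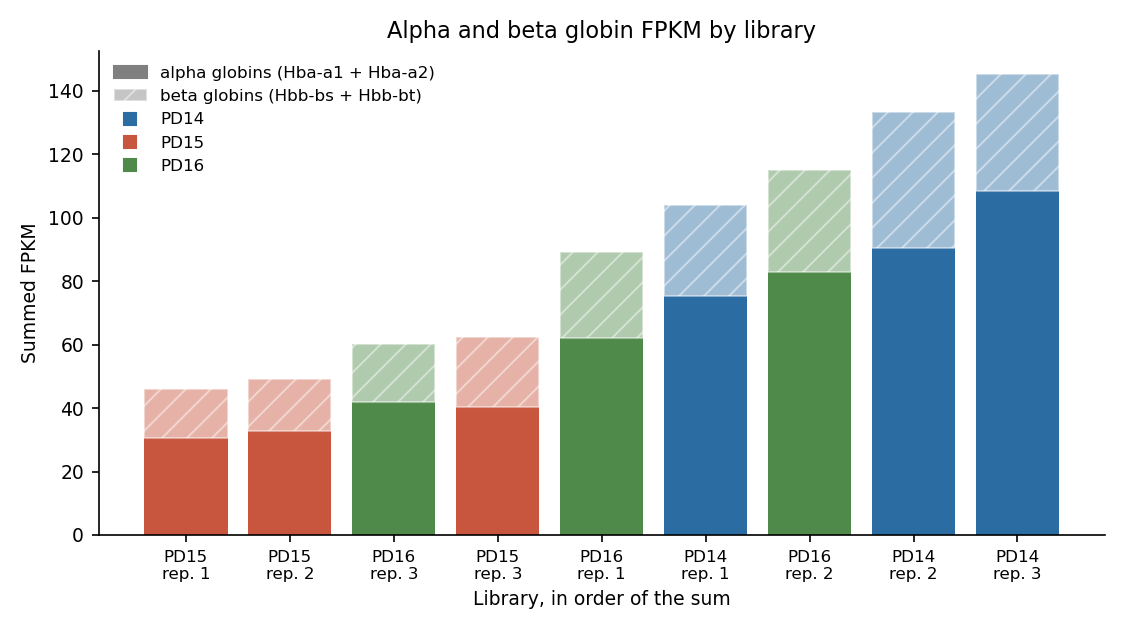
Summed FPKM (vertical axis) of the alpha globin genes (solid) and beta globin genes (hatched) in each library, in order of the sum and coloured by day. The PD15 libraries and PD16 replicate 3 make up the lower end, from 45.9 to 62.3 FPKM, and PD14 replicate 3 the upper end at 145.4 FPKM.

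Hbb-bt put the 9 libraries in the same order as this sum. Hbb-bs differed from it only by an exchange of PD14 replicates 2 and 3, and Hba-a1 only by an exchange of PD15 replicate 3 and PD16 replicate 3. All of these genes share the libraries and, in part, their sequence, so the likeness of their orders is a description.

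The alpha globin sum exceeded the beta globin sum in each library. The ratio of alpha to beta FPKM was 2.65, 2.11 and 2.92 at PD14, 2.0, 1.98 and 1.85 at PD15, and 2.30, 2.58 and 2.28 at PD16. The PD15 libraries had the lowest ratios and did not overlap with either other day, whereas PD14 and PD16 overlapped. Accordingly, the alpha sum was 2.64-fold lower at PD15 than at PD14 (91.4 ± 16.5 against 34.6 ± 5.17 FPKM) and the beta sum 2.02-fold lower (36.1 ± 7.18 against 17.9 ± 3.48 FPKM). FPKM of different genes are comparable per length only as far as the exon lengths used are those of the transcripts present, and the ratio is therefore read between libraries and not as a ratio of chains.

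Alas2 (ENSMUSG00000025270), on chromosome X (chrX:150547375-150570638, plus strand), was measured from 590 fragments over the 9 libraries. It was at 1.22, 1.74 and 1.98 FPKM at PD14, at 0.539, 0.612 and 0.927 FPKM at PD15, and at 1.43, 1.23 and 0.638 FPKM at PD16. PD15 lay below PD14 without overlap, and PD16 replicate 3 was again among the PD15 libraries. The mean was 1.65 ± 0.388, 0.693 ± 0.206 and 1.1 ± 0.413 FPKM on the 3 days (SD, n = 3), 2.38-fold lower at PD15 than at PD14 and 1.59-fold higher at PD16 than at PD15. Alas2 is not a copy of a globin gene, and its order of libraries differed from that of adult hemoglobin only in places 5 to 7, which PD14 replicate 1, PD16 replicate 2 and PD16 replicate 1 took at 1.22, 1.23 and 1.43 FPKM.

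Relative to adult hemoglobin, Alas2 was nearly level. It came to 1.06 to 1.61 FPKM for each 100 FPKM of adult hemoglobin, a range of 1.51-fold, while adult hemoglobin itself ranged 3.17-fold between libraries. By day, this ratio was 1.28 ± 0.0960 at PD14, 1.30 ± 0.165 at PD15 and 1.24 ± 0.313 at PD16 (SD, n = 3), and the days overlapped.

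**Figure D4:**
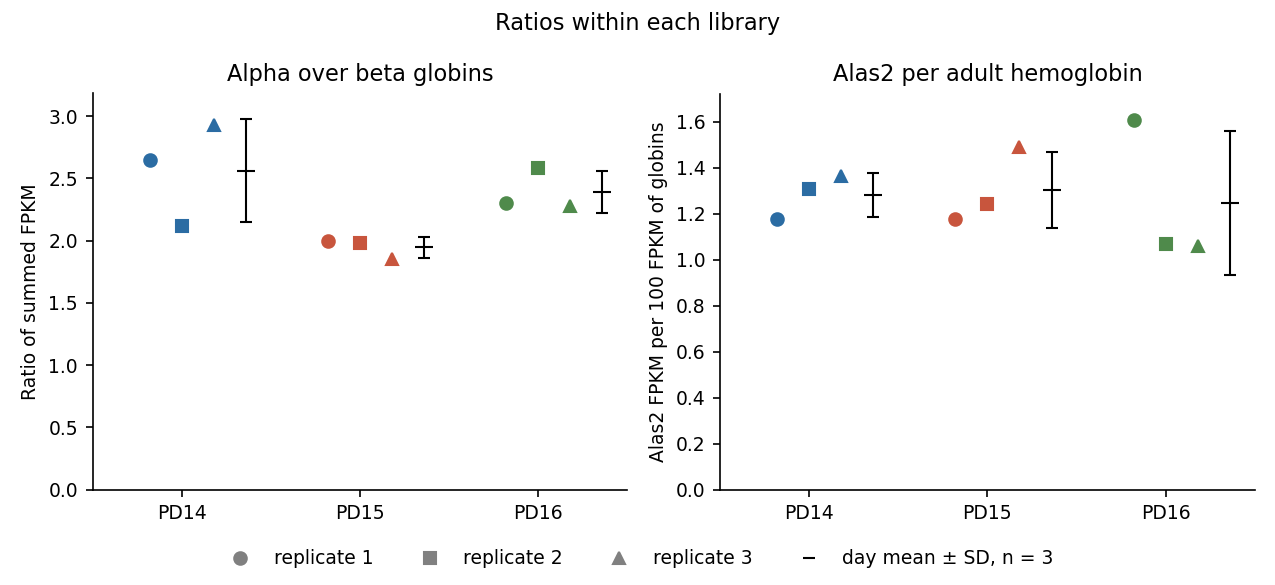
Ratio of the alpha to the beta globin FPKM (left) and Alas2 FPKM for each 100 FPKM of adult hemoglobin (right) in each library by day, with a symbol for each replicate number and the day mean ± SD (n = 3) in black. The alpha to beta ratio is lowest in the PD15 libraries, at 1.85 to 2.0, and the Alas2 ratio overlaps between all days.

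Slc4a1 (ENSMUSG00000006574; chr11:102348824-102366203, minus strand) was near the limit of detection. It was at 0.0501, 0.0254 and 0.010 FPKM at PD14, at 0, 0 and 0.0213 FPKM at PD15, and at 0.0257, 0.00901 and 0 FPKM at PD16. These values stand for 17 fragments in all, 10 at PD14, 3 at PD15 and 4 at PD16. Fragments were pooled over the 3 libraries of a day and taken per mapped fragment. PD15 against PD14 was then 0.266 (95% exact counting interval 0.0470 to 1.03), PD16 against PD14 0.384 (0.0878 to 1.33) and PD16 against PD15 1.44 (0.244 to 9.86). These intervals cover counting error only, not the spread between libraries, and no conclusion is drawn from them. The libraries at 0 allow a level of up to 0.0241 to 0.0258 FPKM.

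Over all genes tested, the members stood far down the order of differences between PD15 and PD14, as the way they were picked implies. On the log2(FPKM + 1) scale, which understates changes of low genes, Hba-a1 was at -1.35, Hba-a2 at -1.17, Hbb-bt at -1.02, Hbb-bs at -0.91 and Alas2 at -0.64, places 21, 28, 48, 68 and 156 from the lowest of 15495 genes. The median over all genes tested was 0.01 in each comparison. For PD15 against PD14, 4 of the 5 members tested were lower without overlap, against a background of 10.2% of all genes. For PD16 against PD14, 1 of 5 (Hba-a2) was lower without overlap, against 13.5%, and for PD16 against PD15, 1 of 5 (Hba-a1) was higher without overlap, against 9.85%. These counts were part of how the genes were picked and show nothing further. The 3 comparisons share libraries with each other.

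Other genes of the red cell program were then examined, from 6 lists of 69 genes, of which 68 were found in the tables and 40 were tested. By limma with Benjamini-Hochberg adjustment over all genes, 0 of these 40 genes rose and 0 fell from PD14 to PD15, whereas 0.336% and 0.342% of all genes tested did, and at an unadjusted p under 0.05 it was 1 higher and 1 lower, while 14.7% of all genes tested passed that mark in either direction. From PD14 to PD16, 1 of 40 rose and 0 fell, against 2.36% and 1.89% of all genes tested, and at an unadjusted p under 0.05 it was 3 higher and 7 lower, beside 22.8% of all genes tested. From PD15 to PD16, 0 rose and 0 fell, against 0.432% and 0.297%, and at an unadjusted p under 0.05 it was 2 higher and 3 lower, beside 14.1% of all genes tested. The median difference of the 40 genes was -0.08, -0.07 and 0.01 on the log2(FPKM + 1) scale in the 3 comparisons, beside 0.01 for all genes tested. From PD14 to PD15, 29 of the 40 had a lower mean, where 48.1% of all genes tested did. Without overlap, 7 of the 40 were lower, beside 10.2% of all genes tested, and 1 was higher. From PD14 to PD16, 28 of the 40 had a lower mean (47.8% of all genes tested). Without overlap, 8 were then lower (13.5% of all genes tested) and 5 higher. For PD15 and PD16 against PD14, the share of all genes tested that was higher without overlap is not reported here. No reading is therefore given of these counts of 1 and 5 higher genes. From PD15 to PD16, 19 of the 40 had a lower mean (46.8%), with 4 lower (9.73%) and 4 higher (9.85%) without overlap.

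**Figure D5:**
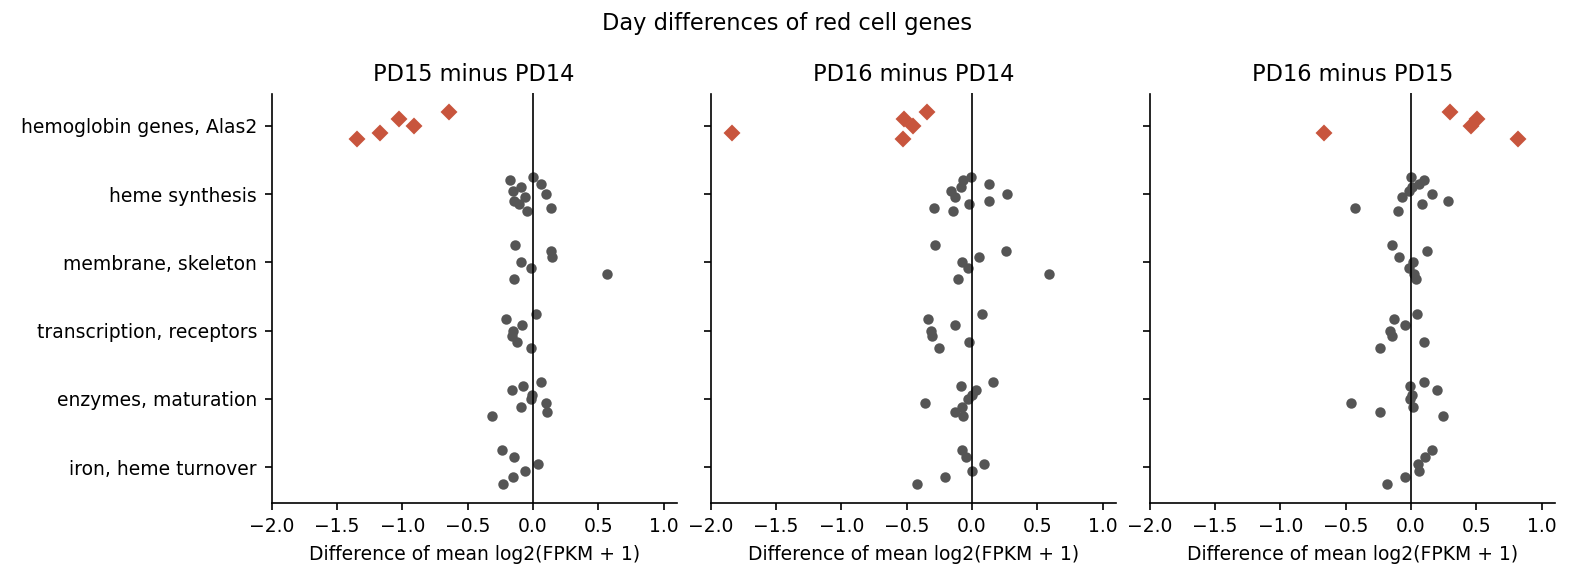
Difference of the day means of log2(FPKM + 1) (horizontal axis) for the 5 members tested (diamonds) and the 40 tested genes of the red cell pathway lists (circles, a row for each list) in the 3 comparisons of days. The members range from -1.35 to -0.64 for PD15 minus PD14, and the list genes from -0.31 to 0.57.

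The other listed globin genes of the same 2 loci were at or near 0. Hba-x and Hbb-bh1, which are used in the embryo, and Hbb-bh2 were listed at 0 in all 9 libraries. Hbb-y reached 0.310 FPKM in a PD15 library, and Hbq1a and Hbq1b at most 0.0685 and 0.122 FPKM. None of these 6 genes was tested. Of the globins of other cells, Cygb, the cytoglobin of fibroblast-like cells, was at 54.0 to 64.9 FPKM and did not pass the test in any comparison (limma adjusted p of 0.867, 0.442 and 0.745). Mb, the myoglobin of muscle, was not tested and was at 0.163 to 0.314 FPKM at PD14, 0.503 to 1.06 at PD15 and 0.604 to 0.691 at PD16, and Ngb, the neuroglobin of nerve cells, was at 0.162 to 0.511 FPKM in all libraries.

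Heme synthesis runs in all cells, and its 11 listed genes other than Alas2 were all tested, with none that passed. The most abundant was Alad, the second enzyme of the pathway, at 64.5 to 84.0 FPKM at PD14, 72.9 to 89.0 at PD15 and 56.7 to 59.4 at PD16 (limma adjusted p of 0.596, 0.154 and 0.113 for PD15 against PD14, PD16 against PD14 and PD16 against PD15). Alas1 was at 6.79 to 8.46 FPKM in all libraries, above Alas2 in each of them, and its log2(FPKM + 1) difference was -0.05 between PD15 and PD14. Fech, which inserts iron into the heme ring, was at 25.9 to 30.3 FPKM and Slc25a37, the mitochondrial iron importer mitoferrin of erythroid cells, at 10.1 to 14.0 FPKM.

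Of the genes for the red cell membrane and its skeleton, 7 of 17 were tested and 11 of 17 had a mean FPKM under 1. Ank1, the ankyrin that ties the membrane skeleton to band 3, was the 1 gene that passed the test, and it rose from PD14 to PD16. It was at 0.392 to 0.759 FPKM at PD14, 1.04 to 1.43 at PD15 and 1.03 to 1.47 at PD16, and its log2(FPKM + 1) difference of PD16 from PD14 was 0.59 ± 0.14 (SE; limma adjusted p = 0.0449). Ank1 entered the genes tested only through PD15 and PD16, where it is high, and with no filter the call was lost (adjusted p = 0.0979). It was also lost when PD14 replicate 1 or 3, PD15 replicate 1 or 2, or any PD16 library was left out (adjusted p from 0.0598 to 0.145). Aqp1, the water channel, was the most abundant of the list at 11.2 to 14.8 FPKM, and endothelium makes it too. By contrast, Rhag, a membrane protein of the Rh complex, did not exceed 0.0177 FPKM.

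Of 11 erythroid transcription factors and receptors, 5 had a mean FPKM under 1, 7 were tested and none passed. Gata1, which also works in megakaryocytes and mast cells, was at 1.51 to 2.16 FPKM at PD14, 1.73 to 1.90 at PD15 and 1.13 to 1.67 at PD16. Klf1, the erythroid factor that acts on the beta globin promoter through CACCC, was at 0.243 to 0.823 FPKM and not tested, and its highest value was in a PD16 library. Ldb1, a cofactor used in many cells, was the most abundant of the list at 40.8 to 49.4 FPKM. Epor, the erythropoietin receptor, was at 1.63 to 2.06 FPKM at PD14, 1.20 to 1.69 at PD15 and 0.865 to 1.77 at PD16 and did not pass the test.

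The list of red cell enzymes and maturation genes held 13 genes in the tables, with 9 tested and none that passed. Prdx2, an abundant peroxidase of red cells that other cells also make, led it at 107.2 to 133.0 FPKM. Car1, the carbonic anhydrase of red cells, was at or under 0.199 FPKM, and Hemgn, an erythroid nuclear protein, at or under 0.0488 FPKM. Of the 10 genes of iron and heme turnover, 6 were tested and none passed. Fth1, the ferritin heavy chain, was the most abundant at 673.7 to 798.0 FPKM. Hmox1, which breaks down heme, was at 15.2 to 19.3 FPKM at PD14, 13.7 to 14.7 at PD15 and 10.3 to 13.7 at PD16 (limma adjusted p of 0.378 for PD15 against PD14 and 0.0696 for PD16 against PD14).

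Markers of other cells of blood and vessels were set beside the globin genes. The summed FPKM of 9 endothelial markers, all detected, was 90.4 to 98.8 at PD14, 83.5 to 90.0 at PD15 and 85.9 to 90.3 at PD16, with PD15 and PD16 below PD14. Of these 9 genes, 9 had a lower mean at PD15 than at PD14 and 8 at PD16, where 48.1% and 47.8% of all genes tested did. None of the 9 passed the limma test for PD15 against PD14 (1 at an unadjusted p under 0.05), and 1 of 9 did for PD16 against PD14, namely Tie1, an endothelial receptor (log2(FPKM + 1) difference -0.25 ± 0.06 SE, limma adjusted p = 0.0458). For PD16 against PD14, 3 of 9 had an unadjusted limma p under 0.05, beside 22.8% of all genes tested. Lower without overlap were 1 of 9 at PD15 and 4 of 9 at PD16, beside 10.2% and 13.5% of all genes tested. The sum of 6 platelet markers was 4.76 to 8.04, 3.81 to 6.84 and 4.29 to 6.33 FPKM on the 3 days, most of it Pf4, and the days overlapped. Itga2b, an integrin of platelets and megakaryocytes in this list, was not tested and was at 0.909 to 0.934 FPKM at PD14, 0.411 to 0.686 at PD15 and 0.346 to 0.509 at PD16. It was lower without overlap on both later days, as were 10.2% and 13.5% of all genes tested. Among the other untested genes of this list, Gp9 had higher means on both later days (0.0309, 0.0446 and 0.0633 FPKM). Gp1bb (0.213, 0.205 and 0.268 FPKM) was higher at PD16, Ppbp (0.0628, 0.0335 and 0.0492 FPKM) was lower on both, and Treml1 was at 0. The sum of 10 leukocyte markers was 15.4 to 16.3 FPKM at PD14, 19.2 to 23.0 at PD15 and 19.5 to 26.7 at PD16, higher on both later days without overlap. Most of it was Lyz2, the lysozyme of macrophages and neutrophils, with means of 8.91, 14.0 and 15.8 FPKM on the 3 days, and Lyz2 rose from PD14 to PD16 (log2(FPKM + 1) difference 0.74 ± 0.14 SE, limma adjusted p = 0.0286). Of the other 4 leukocyte genes tested, none passed, and the macrophage genes Cd68 (2.22, 2.16 and 1.99 FPKM) and Csf1r (2.03, 1.70 and 1.96 FPKM) had lower means on both later days, while Adgre1, another macrophage gene (0.811, 0.935 and 1.18 FPKM), and Ms4a1 of B cells (0.880, 1.23 and 1.39 FPKM) had higher ones. The call of Lyz2 was lost when PD14 replicate 1, 2 or 3 or PD16 replicate 1 or 3 was left out (adjusted p from 0.0623 to 0.0993), and that of Tie1 whichever of the 9 libraries was left out (0.0555 to 0.136). The 8 neutrophil markers summed to at most 1.27 FPKM, with Elane at 0 throughout, except in PD14 replicate 1, which held 7.76 FPKM of Ltf, lactoferrin. The part of these cells in the globin levels was not tested. PD14 replicate 1 had the lowest adult hemoglobin of its day, and without it PD15 against PD14 stood at a log2 ratio of -1.41.

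Some markers of ovarian cells passed the test as well. From PD14 to PD16, Amh, the anti-Müllerian hormone of granulosa cells, and Bmp15, a growth factor of the oocyte, rose by 0.47 and 0.39 on the log2(FPKM + 1) scale (limma adjusted p = 0.0223 and 0.0331), and Cyp19a1, the aromatase of granulosa cells, fell by 0.84 (adjusted p = 0.0316). From PD15 to PD16, Zp2, a gene of the egg coat, fell by 0.61 (adjusted p = 0.0427). Bmp15 stood apart in its list, since 6 of the 7 oocyte markers had a lower mean at PD16 than at PD14, 4 of them without overlap (13.5% of all genes tested), with a median difference of -0.26 over the 7 and no other call. From PD15 to PD16, all 7 had a lower mean (46.8% of all genes tested), 5 without overlap (9.73% of all genes tested), with a median difference of -0.32. From PD14 to PD15, where the globin genes were lower, no ovarian marker passed. Amh and Bmp15 had by then risen by 0.45 and 0.39, short of the threshold (limma adjusted p = 0.0522 and 0.0745). Amh was at 167.7 to 186.1 FPKM at PD14 and 222.4 to 261.0 at PD15, and Bmp15 at 47.6 to 53.1 and 61.0 to 72.0. Their differences of PD16 from PD15 were 0.02 and -0.004. Of the 7 granulosa cell markers, 5 had a lower mean at PD15 than at PD14 (48.1% of all genes tested) and 2, Amh and Foxl2, a higher one. Their median difference was -0.13. Of the 5 stromal markers, 4 had a lower mean and 1 a higher one, with a median difference of -0.09. The oocyte sum was then 910.2 to 1132 FPKM at PD14 and 1148 to 1200 at PD15, higher without overlap. Of its 7 genes, 2 had a lower mean and 5 a higher one. Of the 5 theca and interstitial markers, 4 had a lower mean at PD15 (48.1% of all genes tested), 2 without overlap (10.2%), with a median difference of -0.41 and sums that overlapped (1543 to 2178 and 1126 to 1705 FPKM). The Amh call was lost without PD14 replicate 1 or 3 or PD16 replicate 1 (0.0504 to 0.0848), the Bmp15 call without PD14 replicate 1, 2 or 3, PD15 replicate 2 or PD16 replicate 1 or 2 (0.0515 to 0.113), the Cyp19a1 call without PD14 replicate 1 or 3 or PD16 replicate 1, 2 or 3 (0.0601 to 0.10), and the Zp2 call whichever library other than PD14 replicate 2 was left out (0.0508 to 0.133). The part of these cells in the globin levels was not tested.

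Lastly, the genes whose pattern was most like that of adult hemoglobin were sought among all genes tested, by Pearson's r with log2(FPKM + 1) over the 9 libraries. Among the members, r was 0.996 for Hba-a1, 0.967 for Hbb-bs, 0.971 for Hbb-bt, 0.953 for Alas2 and 0.453 for Hba-a2, where the globin genes are part of the sum. Alas2 is not part of it, but it was picked with its values by day known. It also passed the filter through PD14 and PD16 only, and Hba-a2 through PD14 alone, so these r are a description. The 5 genes that came closest outside the members were a transcript without a symbol in the tables (0.959), the pseudogene Gm8801 (0.958), Hacl1 (0.934), Fkbp9 (0.932) and Armc12 (0.931). The transcript without a symbol (day means 1.25, 0.194 and 0.626 FPKM) and Armc12 (1.41, 0.400 and 0.637 FPKM) passed the filter through PD14 alone. Adult hemoglobin was highest on that day, so the filter favours their pattern, and their place shows nothing further. Gm8801 was at 21.8 to 26.6 FPKM at PD14, 14.0 to 17.2 at PD15 and 19.4 to 23.2 at PD16. In all, 30 of 15495 genes had an r above 0.9, with Hba-a1, Hbb-bs, Hbb-bt and Alas2 among them.

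When the day mean was taken off both sides, Alas2 stood at an r of 0.883 and Hba-a2 at 0.208. The closest genes were then Rfc2 (0.977), Tpgs1 (0.975), Cda (0.975), another transcript without a symbol (0.971) and Hmgb3 (0.966), and none of them was among the 5 above. With the day means left in, their r was 0.0850, 0.647, 0.495, -0.288 and 0.723 in the same order. With 9 libraries, 69 genes exceeded 0.9 on this measure, with Hba-a1, Hbb-bs and Hbb-bt among them. Taking off the day means leaves fewer independent values, so that a high r is reached more easily. This count is therefore not compared with the one above. All of these values share the same libraries, and they describe likeness alone.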

How the data were processed

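RNA-Seq of ovaries at PD14, PD15 and PD16 was analysed, with 3 libraries a day and 9 in all. For each library, the authors deposited a table of FPKM that lists 52025 genes. Per the submitters' processing notes, HISAT2 2.0.5 and mm10 were used, and the counting program and annotation were not given in the sources used here. The labels name a granulosa cell source beside ovary tissue. The 6 genes and all gene lists were chosen with earlier results of these data known.

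FPKM was used as deposited. With GENCODE M21 exon lengths, found for 97.0% of genes, 93.4% to 93.8% of values under 50 fragments came out whole within 0.02, which gave the depth of 20.4 to 28.7 M fragments and the fragments behind all 54 values of the 6 genes. No 2 libraries were identical. Intervals were 95% Wilson for shares and exact for counts, and the limit of a 0 was 3 fragments.

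The 15495 genes whose FPKM averaged over 1 in a minimum of 1 of the 3 days were tested on log2(FPKM + 1) by limma with an intensity trend over all 9 libraries, with Benjamini-Hochberg adjustment and a threshold of 0.05. The method was tested on simulated data, and the outcome is not reported here. The genes named were the 6 genes, list genes that passed the test, the most abundant tested gene of each red cell pathway list, and the 5 genes closest to adult hemoglobin by Pearson's r with and without the day means. Further list genes were chosen for the text with their values known. Alternatives were a pseudocount of 0.1, no filter, median-ratio scaling, no trend, only the days compared, the replicate number as a block, day medians, log2 means, and each library left out. Tests were run with limma 3.58.1 in R 4.3.3. Other steps were run with pandas 2.3.3, NumPy 2.4.6 and SciPy 1.17.1 in Python 3.11.15, and figures were drawn with Matplotlib 3.10.9. The values of 2 list genes are not reported here.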

Additional observations from a re-analysis of the deposited data

How the results depend on the processing

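The log2 ratio of adult hemoglobin kept its sign in all 12 alternatives of each comparison, from -1.43 to -1.01 for PD15 against PD14, from -0.77 to -0.32 for PD16 against PD14 and from 0.51 to 0.96 for PD16 against PD15. The ratios of Hba-a1, Hba-a2, Hbb-bs, Hbb-bt and Alas2 kept their sign as well, while their size on the log2(FPKM + 1) scale was smaller for low genes, such as -0.64 in place of -1.25 for Alas2 and -1.17 in place of -2.17 for Hba-a2 in PD15 against PD14, by the construction of that scale. Where the libraries of the days compared did not overlap, the sign was all but fixed in advance, and that it was kept shows nothing further. This holds in PD15 against PD14 for adult hemoglobin and each of these genes other than Hba-a2. It also holds for Hba-a2 in PD16 against PD14 and for Hba-a1 in PD16 against PD15. The correlation of the deviations of same-numbered libraries ran from -0.21 to 0.16. That of differently numbered libraries of other days covered a like range, from -0.20 to 0.21. Whether same-numbered libraries share more than a number cannot be told from this. With the replicate block, 0 of 40 red cell pathway genes passed in each comparison, so that the call of Ank1 was lost (adjusted p = 0.0889). It was lost as well with no filter (0 of 64 genes) and with only the 2 days compared (0 of 40), and the count ran from 0 to 1 when a library was left out. With no filter, the calls of Amh, Bmp15, Cyp19a1, Lyz2, Tie1 and Zp2 were lost too (adjusted p = 0.0623, 0.0786, 0.0915, 0.0802, 0.0828 and 0.125). With the replicate block, Bmp15, Cyp19a1 and Tie1 were lost (0.0749, 0.0626 and 0.0959), with only the 2 days compared Cyp19a1, Lyz2 and Tie1 (0.0577, 0.0534 and 0.0835), and with no trend Tie1 (0.0599). The cause was not tested. In the other 2 comparisons, the count was 0 in all 15 alternatives. With 3 libraries a day, and 590 fragments of Alas2, 232 of Hba-a2 and 17 of Slc4a1 in all, no reading is given of small differences of these genes.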
